A study of Peromyscus maniculatus with 6 samples.

Results

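A set of 9 genes of glutathione breakdown, cystine supply and glutathione synthesis were followed in deer mouse fibroblasts given tunicamycin. They were chosen by name, and 8 of the 9 (Chac1, Slc7a11, Cth, Cbs, Gclc, Gclm, Gss and Gsr) were matched to rows of a count table of 24281 genes. Chac2, the paralog of Chac1, was not analysed here because no row was matched to that name. Of the rows, 6252 carry an ID and no name, so a gene not matched by name may still be among them. The gene lists below likewise count only genes that were matched by name and tested. All 8 passed the filter on low counts, which kept 13503 genes. The cells were primary fibroblasts from ear punches of Peromyscus maniculatus of the BW stock, aged 4 weeks. Each of 3 animals (BW35770, BW35772 and BW35773) gave a control library and another from cells given tunicamycin for 5 h after 24 h in culture plates. The label states the concentration as 5 mg per mL, which is unusually high for this drug, and its unit could not be checked here. Tunicamycin blocks N-glycosylation, and unfolded protein then accumulates in the endoplasmic reticulum. What the control wells received is not stated in the sources used here. No genotype other than the stock is given, and each animal contributed 1 culture per condition.

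Glutathione is a tripeptide of glutamate, cysteine and glycine and the main soluble thiol of animal cells. Cysteine usually limits its synthesis. It reaches fibroblasts mainly as cystine, taken up through SLC7A11 and reduced inside the cell, or is made from homocysteine by the transsulfuration enzymes CBS and CTH. Glutamate-cysteine ligase (GCLC with its modifier GCLM) and glutathione synthetase (GSS) build glutathione, glutathione reductase (GSR) regenerates it from the disulfide, and CHAC1 and CHAC2 cleave it in the cytosol. Chac1, Slc7a11 and Cth are known targets of ATF4, the transcription factor whose translation rises when eIF2alpha is phosphorylated, and Slc7a11, Gclc, Gclm and Gsr are known targets of NRF2.

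Libraries held 37852385 to 49352126 counts on genes, so that 1 count was worth 0.0191 to 0.0274 CPM (counts relative to library size, scaled by TMM factors). Of 13 fibroblast markers 12 were named and tested, with summed levels of 15600 to 21600 CPM in controls and 16000 to 20800 CPM in treated libraries. Summed markers of chondrocytes lay at 1900 to 8480 CPM in controls and 2110 to 9020 CPM in treated libraries. Schwann cell markers were lower with tunicamycin in all 3 pairs without overlap, at 139, 186 and 186 CPM in the controls of BW35770, BW35772 and BW35773 and 107, 118 and 132 CPM in their treated libraries. Leukocyte markers (89.1 to 182 CPM in controls, 70.4 to 158 CPM treated), keratinocyte markers (14.1 to 32.5 and 10.1 to 21.1 CPM) and endothelial markers (1.37 to 4.75 and 0.923 to 4.01 CPM) were lower in all 3 pairs, with overlap. Melanocyte markers (16.9 to 26.7 and 21 to 32.6 CPM) were higher in all 3, and muscle markers lay at 18 to 23.9 and 15.7 to 18.9 CPM. The Schwann cell, leukocyte, keratinocyte, endothelial and melanocyte sums thus each went 1 way in all 3 pairs. No test was run on the sums, and in each marker list 0 genes were called higher and 0 lower. The keratinocyte list held 4 tested genes, and the endothelial and melanocyte lists 1 each. The part of these sums in the changes described was not tested. Krt1 and Dsg3 (keratinocytes), Tyrobp and Cd3e (leukocytes) and Tie1 (endothelium) had 0 counts in every library. Chondrocyte markers were lowest in both libraries of BW35770, at 1900 and 2110 CPM against 6210 to 9020 CPM in the others. In a principal component analysis the first component (33.9% of the variance) ran from the control of BW35770 at -46.7 to the treated library of BW35772 at 52.4. On the second (29.5%) the treated libraries of BW35770 and BW35772 were highest, at 45.1 and 30.7, and on the third (21.4%) that of BW35773, at 51.3.

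Of the 8 genes 2, Chac1 and Slc7a11, rose with tunicamycin and 0 fell (edgeR quasi-likelihood test over all genes, adjusted p under 0.05). Among all 13503 tested genes 1.78% rose and 0.792% fell. At an unadjusted p under 0.05 the same count of 2 was higher and 0 lower, DESeq2 gave 2 and 0, and limma-voom 1 and 0. Over all genes DESeq2 called 604 rises and 338 falls among 18430 genes fitted, and limma-voom 218 and 104 among 13503. Many genes pass the unadjusted cutoff. In the same edgeR fit Tstd1, a gene of the sulfide list below, had an unadjusted p of 0.0472 and ranked 2025 of all 13503 by p, both directions together. Counts at an unadjusted p, here and in the lists below, are to be read against that number. In a fit with a replicate block, which pairs the 2 libraries of each animal, 2 rose and 0 fell, where 3.07% of all genes rose and 2.4% fell. Those shares are 415 rises and 324 falls. Over all genes this fit gave 74 rises and 37 falls without animal BW35770, 497 and 451 without BW35772, and 806 and 826 without BW35773. Calls lost below without BW35770 are to be read against these totals. The median log2 ratio (tunicamycin over control) was 0.05 over the 8 genes and -0.01 over all tested genes. These are bulk RNA levels, in which fewer cells of a type and less RNA per cell cannot be told apart.

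Chac1 is the glutathione-cleaving enzyme of the set (ENSPEMG00000008038, scaffold KI615432.1, bases 53293 to 56837, minus strand, 3 exons). Its level was 6.83, 7.45 and 5.96 CPM in the controls of BW35770, BW35772 and BW35773, and 180.2, 158.7 and 172.3 CPM in their treated libraries. Every treated library stood above every control, and the treated animals differed from each other by little beside the gap to the controls. Within the pairs the level rose 26.4-fold, 21.3-fold and 28.9-fold. The log2 ratio was 4.66 ± 0.14 (SE, 95% interval 4.32 to 4.99), with the smallest p of all tested genes (edgeR adjusted p = 1.57e-05). Across 17 other settings, which included leaving out each library or animal, it ran from 4.58 to 4.79 and was called each time.

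**Figure D1:**
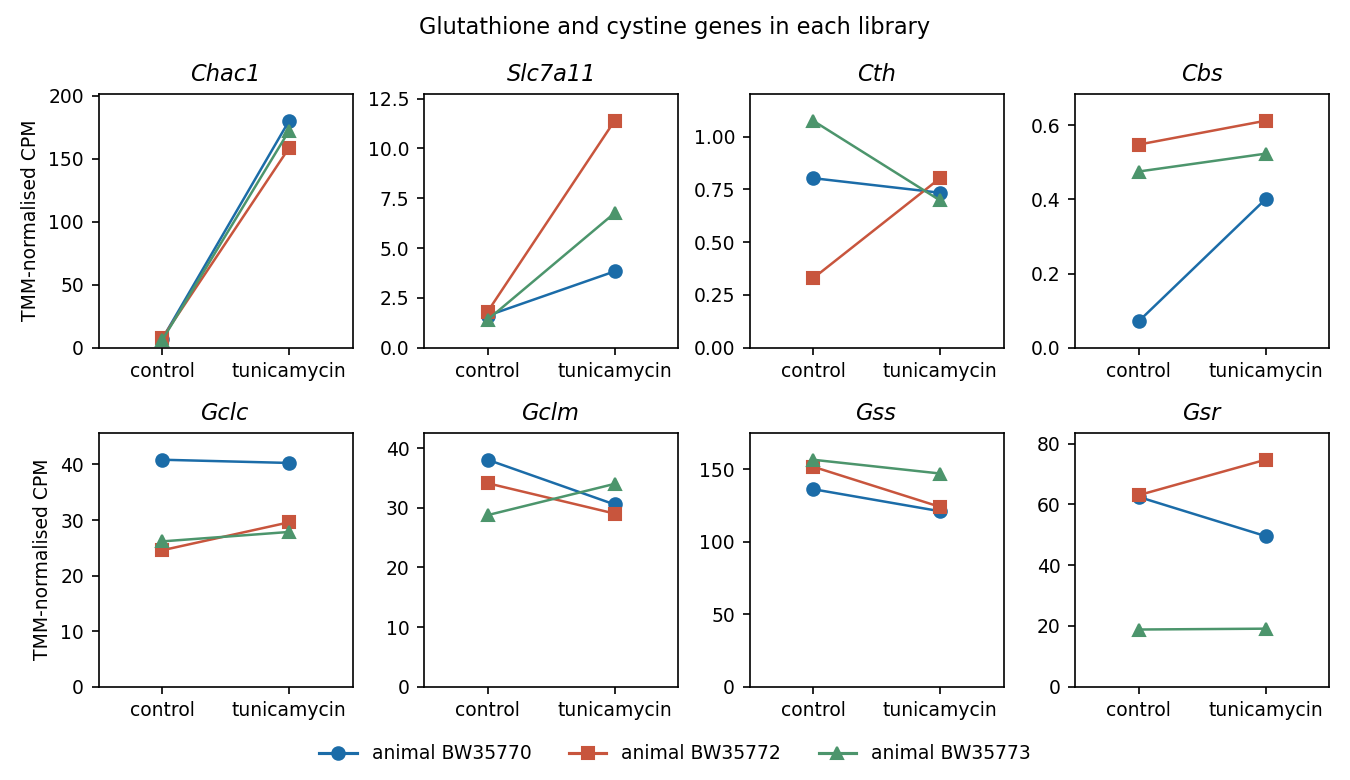
TMM-normalised CPM of 8 genes (y axes, each from 0) in control and tunicamycin libraries (x axes); each line joins the 2 libraries of 1 animal. Chac1 went from 5.96 to 7.45 CPM in controls to 158.7 to 180.2 CPM, Slc7a11 fanned out to 3.83 to 11.4 CPM, and Gsr lay at 18.8 and 19.1 CPM in the libraries of BW35773.

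Slc7a11 encodes the transporter subunit of system xc-, which brings cystine in and sends glutamate out (ENSPEMG00000004847, scaffold KI615406.1, bases 7967059 to 8038307, plus strand, 12 exons). It was a low-abundance transcript in controls, at 1.61, 1.81 and 1.40 CPM (68, 66 and 56 counts). Treated libraries of BW35770, BW35772 and BW35773 held 3.83, 11.4 and 6.76 CPM. The groups did not overlap, but the size of the rise was uneven, at 2.38-fold, 6.30-fold and 4.82-fold within the pairs. The treated library of BW35772, the highest on the first component, had the highest level and that of BW35770 the lowest. The log2 ratio was 2.19 ± 0.41 (SE, edgeR adjusted p = 0.0402), and 2.07 ± 0.32 with the replicate block (edgeR adjusted p = 0.0147).

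This call was near the threshold. Leaving out the control of BW35770, BW35772 or BW35773 in turn gave Slc7a11 log2 ratios of 2.19, 2.33 and 2.10 at an edgeR adjusted p of 0.145, 0.169 and 0.202. In the same unpaired fits the rises over all genes numbered 79, 51 and 46 in place of 241. Without the treated library of BW35772 the log2 ratio was 1.73 (edgeR adjusted p = 0.0653), and without that of BW35773 it was 2.27 (0.0562). It was called without the treated library of BW35770 (log2 ratio 2.50, edgeR adjusted p = 0.0239). Limma-voom did not call it (adjusted p = 0.0995). In fits with the replicate block it was called with each animal left out, at log2 ratios of 2.46, 1.76 and 2.00 without BW35770, BW35772 and BW35773 (edgeR adjusted p = 0.0256, 0.00055 and 0.0211).

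The transsulfuration genes had few counts. Cth, which releases cysteine from cystathionine (ENSPEMG00000000127), stood at 0.80, 0.33 and 1.08 CPM in the controls of BW35770, BW35772 and BW35773 and 0.73, 0.80 and 0.70 CPM with tunicamycin (12 to 43 counts per library). The groups overlapped, and Cth went up in 1 pair and down in 2. Its log2 ratio was 0.02 ± 0.49 (SE, 95% interval -1.14 to 1.17, edgeR adjusted p = 0.994), an interval that holds both a halving and a doubling. Cbs, which condenses homocysteine with serine (ENSPEMG00000021739), had 3, 20 and 19 counts in controls and 18, 32 and 21 in treated libraries. The low control of BW35770 stood alone, and its pair had a ratio of 5.65 with a counting interval of 1.65 to 29.9 (exact binomial, 95%, counting error only). The log2 ratio of Cbs was 0.50 ± 0.69 (SE, 95% interval -1.10 to 2.10, edgeR adjusted p = 0.834), and 0.00 without that control. No change in Cth or Cbs was detectable in these libraries.

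The glutathione synthesis genes were well covered and none was called. Gclc, the catalytic subunit of glutamate-cysteine ligase (ENSPEMG00000012093), was at 40.9, 24.6 and 26.2 CPM in controls and 40.3, 29.6 and 27.9 CPM in treated libraries of BW35770, BW35772 and BW35773. Both libraries of BW35770 were above all 4 others, so that animals differed more than treatments. With the replicate block its log2 ratio was 0.11, with a 95% interval of -0.19 to 0.41 (edgeR adjusted p = 0.679). Gclm, the modifier subunit (ENSPEMG00000013091), was at 38.1, 34.1 and 28.8 CPM and then 30.6, 29.0 and 34.0 CPM. It went down in 2 pairs and up in 1. Its log2 ratio was -0.11 ± 0.15 (SE, 95% interval -0.45 to 0.23, edgeR adjusted p = 0.824).

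Gss, which adds glycine in the last step of synthesis (ENSPEMG00000021810), was the most abundant of the set in controls, at 136.1, 151.6 and 156.4 CPM, and stood at 120.9, 123.9 and 146.9 CPM after tunicamycin. It was lower in each of the 3 pairs, by a factor of 0.89, 0.82 and 0.94, but the groups overlapped. The log2 ratio was -0.18 ± 0.12 (SE, 95% interval -0.47 to 0.11, edgeR adjusted p = 0.569, and 0.386 with the replicate block). Gss overlaps Acss2 on the opposite strand over 11547 bases of gene span, and the table is titled strand-specific. The 95% intervals of Gclc, Gclm and Gss without the block, and that of Gsr with it, stayed inside a 2-fold change in either direction.

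**Figure D2:**
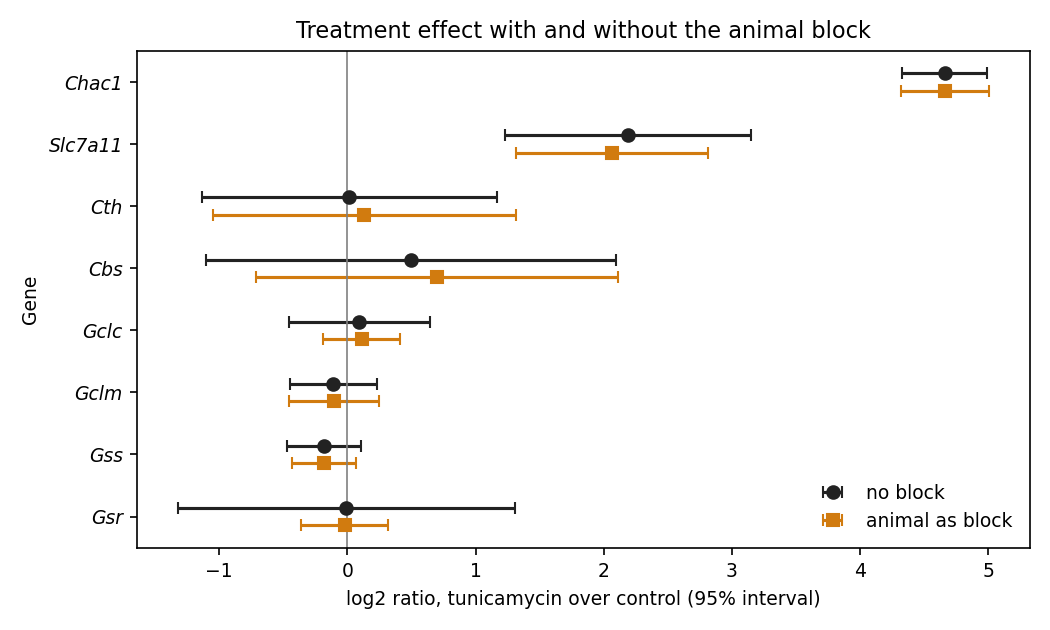
Log2 ratio of tunicamycin over control (x axis) for 8 genes (y axis), with 95% intervals, from the edgeR fit without a block (circles) and with the animal as a block (squares). The intervals of Chac1 and Slc7a11 lie above 0, and that of Gsr narrows from -1.32 to 1.31 without the block to -0.36 to 0.32 with it.

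Gsr, the NADPH-dependent reductase that returns glutathione disulfide to glutathione (ENSPEMG00000016504), differed between animals. It was at 62.5 and 49.6 CPM in the control and treated libraries of BW35770, at 63.1 and 74.7 CPM in those of BW35772, and at 18.8 and 19.1 CPM in those of BW35773. Both libraries of BW35773 were thus below all others, 2.93-fold below BW35770 and 3.61-fold below BW35772 on average. The treatment effect was -0.02 ± 0.14 on the log2 scale with the replicate block (SE, edgeR adjusted p = 0.95). In a test between animals, with treatment as a term and run after these values were seen, Gsr was the 1 member called of 8 (edgeR adjusted p = 0.00517), where 3.53% of all tested genes were called. Gclc had an adjusted p of 0.125 in that edgeR test, and the other 6 members had adjusted p-values from 0.445 to 0.874. Summed keratinocyte markers were also set apart in BW35773, at 32.5 and 21.1 CPM against 10.1 to 16.9 CPM in the other animals. For Gclc, higher in BW35770, the low chondrocyte markers of that animal and its leukocyte markers (182 and 158 CPM against 70.4 to 125 CPM) moved along. Their part in these differences was not tested.

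Levels per exon length (RPKM, CPM per 1000 exon bases) put the genes in order within each condition. In controls the mean RPKM was 75.8 ± 5.41 for Gss, 37.2 ± 19.6 for Gsr, 16.3 ± 2.26 for Gclm, 9.75 ± 2.87 for Gclc, 4.06 ± 0.45 for Chac1, 0.77 ± 0.10 for Slc7a11, 0.38 ± 0.20 for Cth and 0.16 ± 0.11 for Cbs (SD, n = 3). Neighbours in this order did not overlap over libraries except Gsr with Gclm and Cth with Cbs. After tunicamycin Chac1 stood first at 102.6 ± 6.57 RPKM, above Gss at 66.8 ± 7.27 RPKM, and Slc7a11 at 3.51 ± 1.83 RPKM was still below Gclc at 10.4 ± 2.15 RPKM. In percentiles of RPKM over all tested genes, Chac1 went from 34 to 93.6 and Slc7a11 from 13 to 30.9, while Cth lay at 7.79 and 7.92 and Cbs at 3.05 and 4.78.

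Breakdown and synthesis transcripts could be set against each other within each library. The ratio of Chac1 to Gclc in RPKM was 0.315, 0.572 and 0.429 in the controls of BW35770, BW35772 and BW35773, and 8.43, 10.1 and 11.7 in their treated libraries. As a share of summed Gclc, Gclm and Gss RPKM, Chac1 went from 4.07%, 4.40% and 3.50% to 121%, 110% and 103%. The synthesis sum itself was 101 to 102 RPKM in controls and 86.9 to 101 RPKM in treated libraries. Gclc stayed below its partner Gclm in all 6 libraries, at 0.475 to 0.869 of the Gclm RPKM. These are transcript ratios, and no enzyme or glutathione level was measured.

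**Figure D3:**
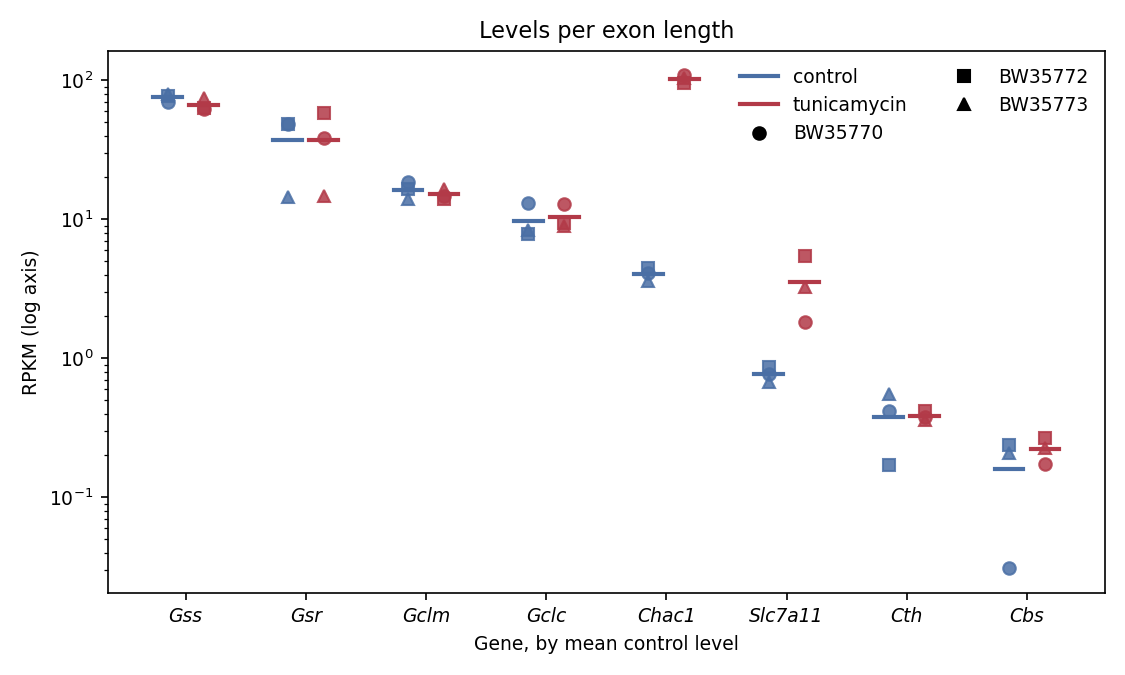
Level per exon length (RPKM, log axis) of 8 genes ordered by mean control level, with each library as a point shaped by animal and each group's mean as a bar. Chac1 moved from 4.06 to 102.6 RPKM, from below Gclc to above Gss, while Cth and Cbs stayed under 1 RPKM in all 6 libraries.

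The genes whose log2 CPM followed Chac1 most closely over the 6 libraries were Trib3, a pseudokinase (Pearson r = 0.999), the adaptor Traf2 (0.999) and Fn3krp, a ketosamine kinase (0.999). Their own log2 ratios were 4.54, 1.07 and 0.75. All 3 rose (edgeR adjusted p = 1.57e-05, 0.00321 and 0.0464), though Traf2 lost its call without animal BW35770 in the fit with the replicate block (0.068), and Fn3krp without either library of BW35770 (0.159 for the control, 0.157 for the treated one) or BW35772 (0.197 and 0.0653), the control of BW35773 (0.239), animal BW35770 under the block (0.422) or the filter (0.0695). The log2 ratio of Fn3krp was 0.73 to 0.80 in those fits. For Slc7a11 they were Fndc3a, Ppp1r21 and Unc119b, each at r = 0.99, with log2 ratios of 0.49, 0.33 and 0.47 that were not called (edgeR adjusted p = 0.101, 0.207 and 0.0938). DESeq2 called Fndc3a and Unc119b (adjusted p = 0.0343 and 0.0285), as did the replicate block without animal BW35773 (edgeR adjusted p = 0.0302 and 0.032). Each was called in only these 2 of 17 alternatives. Those settings gave 604 and 806 rises over all genes, against 241 in the edgeR fit of all libraries without the block. The 6 points share animals and treatment, so these correlations only describe a pattern.

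Among partners in cystine and cysteine transport 3 of 7 tested genes rose and 0 fell, with a median log2 ratio of 1.57 against -0.01 for all genes (4 higher and 0 lower at an unadjusted p under 0.05, 4 and 0 in DESeq2). Slc38a2, a carrier of small neutral amino acids, went from 218.0 ± 35.3 to 721.9 ± 78.5 CPM (SD, n = 3), and its log2 ratio was 1.73 ± 0.16 (SE, edgeR adjusted p = 0.0027). Slc1a5, the glutamine exchanger ASCT2, rose by 1.58 ± 0.17, and Slc1a4, the alanine, serine and cysteine carrier ASCT1, by 1.57 ± 0.21. Slc1a4 was not called when the control of BW35772 or BW35773 was left out (edgeR adjusted p = 0.061 and 0.0946), with log2 ratios of 1.47 and 1.48. Slc3a1, a heavy chain of another cystine carrier, had few counts: 26, 26 and 20 in the controls of BW35770, BW35772 and BW35773. Their treated libraries held 106, 99 and 57. It was not called without the block (log2 ratio 1.63, edgeR adjusted p = 0.0706). It was called with the replicate block (log2 ratio 1.62, edgeR adjusted p = 0.0466) and in DESeq2, but not under the block without animal BW35770 (1.45, 0.451). Ctns, Mfsd12 and Slc1a2 of this list were not called, at log2 ratios of 0.38, 0.30 and 0.42 (edgeR adjusted p = 0.469, 0.748 and 0.877). Slc1a2 had 1 to 14 counts per library. Slc3a2, the heavy chain that SLC7A11 needs, was not analysed here.

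Of 15 genes that use cysteine or handle sulfide 1 rose and 0 fell, with a median of -0.05 (3 higher and 2 lower at an unadjusted p under 0.05, 2 and 0 in DESeq2). The riser was Cars, which charges cysteine tRNA. It went from 105.6, 81.0 and 81.5 CPM in the controls of BW35770, BW35772 and BW35773 to 304.8, 276.4 and 288.8 CPM, a log2 ratio of 1.70 ± 0.14 (SE, edgeR adjusted p = 0.00157). Every treated library was above every control. With the replicate block Got1, an aspartate aminotransferase, was also called higher (log2 ratio 0.66, edgeR adjusted p = 0.0256) and Suox, sulfite oxidase, lower (-0.57, 0.0421), so 2 rose and 1 fell. Without animal BW35770 neither was called under the block (log2 ratios 0.73 and -0.63, edgeR adjusted p = 0.261 and 0.374), and without BW35772 Suox was not (-0.53, 0.0731).

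No other tested gene of glutathione breakdown was called. None of 8 tested genes of the gamma-glutamyl cycle and the glutathione peptidases was called by edgeR, DESeq2 or limma-voom, and 0 had an unadjusted p under 0.05. Their log2 ratios ran from -0.40 to 0.04. Ggct, the cyclotransferase that acts on gamma-glutamyl amino acids, had 8.51, 9.87 and 9.36 CPM in controls and 9.50, 6.03 and 12.9 CPM in treated libraries (log2 ratio 0.04 ± 0.28, edgeR adjusted p = 0.978). Its groups overlapped. Cndp2, a cytosolic peptidase of cysteinylglycine and the smallest p of this list, had a log2 ratio of -0.25 ± 0.14 (edgeR adjusted p = 0.457). Per exon length, Chac1 stood at 0.317 to 0.400 of Ggct in controls and 6.65 to 13.1 in treated libraries.

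In the methionine cycle, which supplies homocysteine to CBS, 0 of 10 tested genes were called by edgeR or limma-voom, with a median log2 ratio of 0.04 (1 higher and 0 lower at an unadjusted p under 0.05, 1 and 0 in DESeq2).

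Genes that use or move glutathione were not called in the fit without the block. Of 21 glutathione peroxidases, transferases and glutaredoxins 0 rose and 0 fell in edgeR and limma-voom, with 0 higher and 3 lower at an unadjusted p under 0.05, 2 lower in DESeq2 and a median of -0.12. Gstm5, a glutathione transferase, went from 221.7, 286.9 and 261.0 to 112.4, 146.2 and 190.7 CPM. All controls were above all treated libraries, at a log2 ratio of -0.78 ± 0.20 (edgeR adjusted p = 0.113), and it was called lower with the replicate block (-0.80, edgeR adjusted p = 0.0208), though not without animal BW35770 (-0.71, 0.282). Its counts may be uncertain, as near-identical transferases can share reads. Gpx4, which reduces lipid peroxides, had a log2 ratio of -0.11 ± 0.20 (edgeR adjusted p = 0.875). Of 5 export and mitochondrial import genes 0 were called by edgeR, DESeq2 or limma-voom, and 0 had an unadjusted p under 0.05. Abcc5, an organic anion pump, had the smallest p among them (log2 ratio -0.14, edgeR adjusted p = 0.696). Of 12 genes of lipid peroxide defence and iron handling 0 were called by edgeR, DESeq2 or limma-voom, with 0 higher and 2 lower at an unadjusted p under 0.05. Lpcat3, a phospholipid acyltransferase, had the smallest p (log2 ratio -0.37, edgeR adjusted p = 0.266), and with the replicate block the iron exporter Slc40a1 was called lower (-0.91, edgeR adjusted p = 0.00511), though not without animal BW35770 (-0.90, 0.11).

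**Figure D4:**
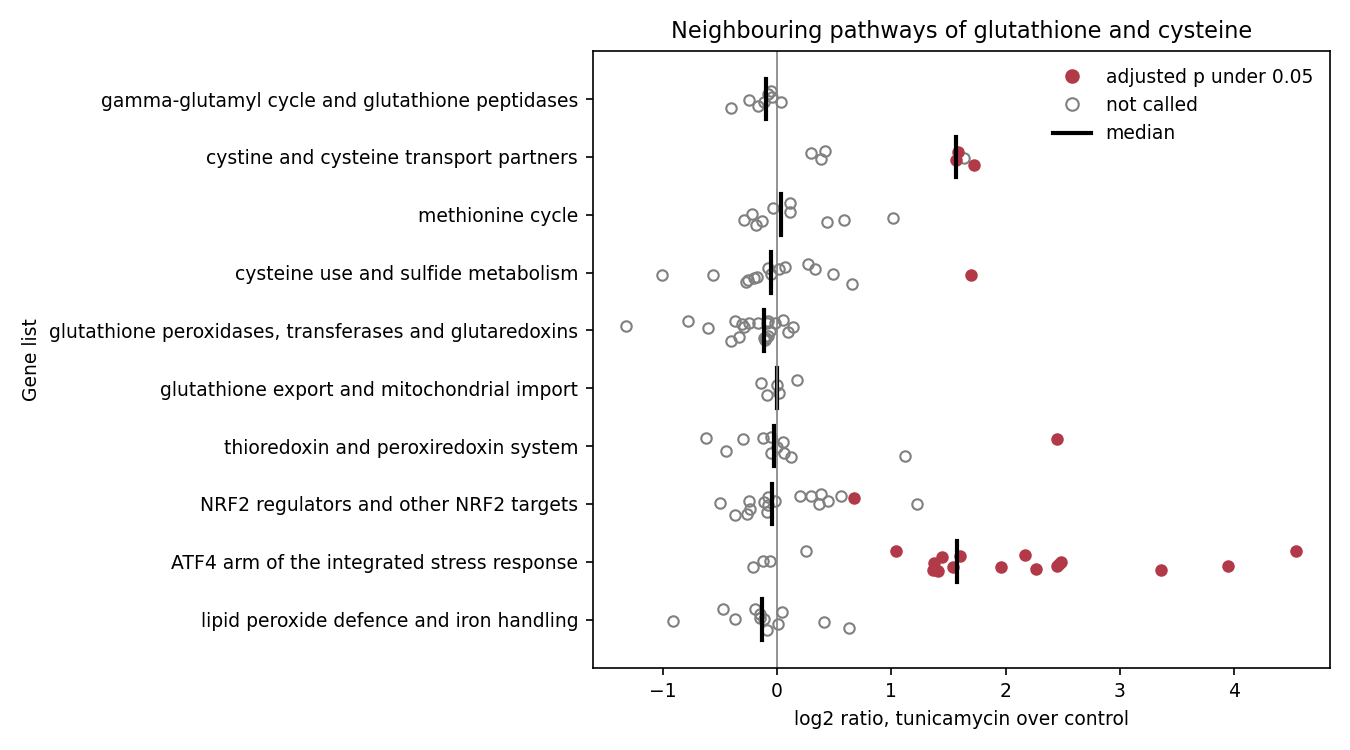
Log2 ratio of tunicamycin over control (x axis) for the tested genes of 10 lists (y axis); filled points passed an edgeR adjusted p under 0.05, open points did not, and the bar is the list's median. Called genes lie mostly in the ATF4 list (16 of 20) and among cystine and cysteine transport partners (3 of 7).

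The lists for the regulators known to act on these genes differed in their counts. In the ATF4 arm of the integrated stress response 16 of 20 tested genes rose and 0 fell, also at an unadjusted p under 0.05, in DESeq2 and in limma-voom. The median log2 ratio was 1.57, and 10 rose without the control of BW35773. Atf4 itself was at 213.0, 168.0 and 180.5 CPM in the controls of BW35770, BW35772 and BW35773 and 1053, 921.7 and 1133 CPM after tunicamycin. Trib3 rose by 4.54 on the log2 scale, Slc7a5, a carrier of large neutral amino acids, by 3.36, and Ddit3, which encodes CHOP, by 3.95 (edgeR adjusted p = 1.57e-05, 0.000146 and 0.000488). This list was drawn up with the response of these libraries known, and is no independent evidence of its direction. The members and the other lists were also chosen with earlier results of these data known.

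Among 18 tested NRF2 regulators and other NRF2 targets 1 rose and 0 fell, with a median of -0.05 (4 higher and 3 lower at an unadjusted p under 0.05, 2 and 0 in DESeq2). Nfe2l2, which encodes NRF2, had 394.2, 330.1 and 281.3 CPM in controls and 492.0, 375.8 and 363.7 CPM in treated libraries. It was higher in each of the 3 pairs, but the groups overlapped (log2 ratio 0.29 ± 0.18, edgeR adjusted p = 0.514, and 0.186 with the replicate block). Keap1, which targets NRF2 for degradation, had a log2 ratio of -0.09 ± 0.11 (edgeR adjusted p = 0.796). Mafk, a small partner of NRF2 and of its repressor BACH1, was the called gene (log2 ratio 0.68 ± 0.13, edgeR adjusted p = 0.0403). Mafk had log2 ratios of 0.62 to 0.75 in every alternative tried, but it was not called when a control was left out (edgeR adjusted p = 0.096, 0.189 and 0.217 for BW35770, BW35772 and BW35773), nor when the treated library of BW35770 or BW35772 was (0.139 and 0.0703), nor with the replicate block when animal BW35770 was (0.269). With the block and all libraries 3 were called higher and 1 lower. Osgin1, a growth inhibitor, and Mafg were added to Mafk (log2 ratios 1.27 and 0.57, edgeR adjusted p = 0.00486 and 0.0342), and Hmox1, heme oxygenase, was lower (-0.50, 0.0435). Under the block without animal BW35770 the counts were 0 and 0, with log2 ratios of 1.35 for Osgin1, 0.63 for Mafg and -0.49 for Hmox1 (edgeR adjusted p = 0.0634, 0.32 and 0.472), and Hmox1 was not called without BW35772 either (-0.47, 0.11). Over all genes the block gave 74 rises and 37 falls without BW35770, against 415 and 324 with every animal. In the thioredoxin and peroxiredoxin list 1 of 12 rose and 0 fell, with a median of -0.03 (2 higher and 2 lower at an unadjusted p under 0.05, 2 and 1 in DESeq2). That gene was Sesn2, a sestrin also counted in the ATF4 list (log2 ratio 2.45, edgeR adjusted p = 0.000488). Txnip, an inhibitor of thioredoxin, was added with the replicate block (log2 ratio 1.09, edgeR adjusted p = 0.00416), though not without animal BW35770 (1.08, 0.0706).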

How the data were processed

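The deposited table gives, for each library, raw counts of reads on each gene. Per the submitters' processing notes the authors used STAR 2.6.1, SAMtools 1.6 and featureCounts. Genome build and annotation are not stated in any source used here, and positions are as the table prints them. Replicates are animals.

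Counts were analysed with edgeR 4.0.16 (R 4.3.3). Genes were kept by filterByExpr (minimum count 10, minimum total 15), scaled by TMM, and tested with the two-sided quasi-likelihood test, adjusted by Benjamini-Hochberg over all tested genes, threshold 0.05. SE is the log2 ratio divided by the root of F. RPKM uses the exon length in the table. Correlations used log2 CPM with a prior count of 2. Libraries of 1 animal pair up by the title: deviations from group means correlated at 0.656, 0.408 and 0.217 across genes for BW35770, BW35772 and BW35773. The highest correlation of each control with another animal's treated library was -0.153, -0.0111 and 0.132, so the gap was smallest for BW35773.

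The members, lists and tests were chosen with earlier results of these data known. Named genes, 32 in all, are the members, 7 fixed partners (6 matched), up to 3 called genes with the smallest p per list (otherwise the 1 with the smallest p), and for each called member the 3 named genes of highest r whose log2 CPM averages 1 or more. Genes added by the replicate block, and Ctns, Mfsd12 and Slc1a2, are outside these and were named after seeing their values. Of the 32, 1 is not reported here. Alternatives were other scalings and filters, DESeq2 1.42.0, limma-voom (limma 3.58.1), the block, and leaving out each library or animal. Steps were tested on simulated data. No promoter or protein sequences were used here.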

Additional observations from a re-analysis of the deposited data

How the results depend on the processing

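The 2 member rises and 0 falls held under RLE, upper-quartile and no scaling factors, no filter, a stricter filter (1 CPM in 3 libraries), DESeq2 and the replicate block. Limma-voom gave 1 rise, and fits without 1 library or 1 animal gave 1 to 2; the member lost was Slc7a11 each time, and Chac1 was called in all 17. The stricter filter dropped Cth and Cbs. No member was called lower under any of these. Counts over all genes moved more: against 241 rises and 107 falls, the replicate block gave 415 and 324 and DESeq2 604 and 338, while leaving out a library or animal gave 46 to 806 rises and 15 to 826 falls; the cause was not tested. The scaling factors moved the median of all genes by less than 0.1. Fits that leave out a single library are unpaired, as is the fit with 241 rises, so differences between animals count as error in all of these. Beside the genes named with the block above, it changed no other call among the named genes. Cth and Cbs, at 3 to 43 counts per library, had 95% intervals over 2 log2 units wide with and without the block; that of Gsr was as wide without the block and narrower with it.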
